A study of Homo sapiens with 6 samples.

Results

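The genes described here are 10 chemokine ligand genes (CCL2, CCL20, CXCL1, CXCL2, CXCL3, CXCL8, CXCL10, CXCL11, CXCL16 and CX3CL1), found by their symbols among the 30947 genes of a deposited count table. All 10 were found, and all 10 passed the filter on low counts and were among the 15374 genes tested. RNA sequencing of total RNA had been done in Cal27, an established line of oral squamous cell carcinoma, with 3 libraries after lentiviral knockdown of DAZAP1 and 3 negative control libraries. DAZAP1 encodes an hnRNP-type protein that binds RNA. The treatment protocol describes the control as empty vector, whereas the design text speaks of a control sequence, and the labels name neither the hairpin nor a number of clones or infections. Nor do they state whether replicate libraries came from separate cultures, so the p-values measure the spread between these libraries only.

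Chemokines are small secreted or shed proteins that guide leukocytes by binding receptors on their surface. CXCL1, CXCL2, CXCL3 and CXCL8 attract neutrophils through CXCR2, CCL2 attracts monocytes through CCR2, and CCL20 attracts cells that carry CCR6. CXCL10 and CXCL11 are interferon-inducible ligands of CXCR3, and CXCL16 and CX3CL1 are made as membrane-bound proteins and released by shedding. In squamous epithelium many of them are known targets of NF-kB, and several have short-lived mRNAs that carry AU-rich elements.

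The libraries held 16333542 to 17815862 counts in the knockdown and 18547236 to 18955230 counts in the control. DAZAP1 averaged 72.9 ± 5.20 CPM (the count in parts per 1000000 of the TMM-scaled library total) in the knockdown and 265.3 ± 10.9 CPM in the control (SD, n = 3 each), 3.64-fold lower in the knockdown. The 9 epithelial markers, among them KRT5, TP63 and EPCAM, were all tested and summed to 4320 to 4378 CPM in the knockdown and 3724 to 3867 CPM in the control. Of these, 5 rose, 2 fell and 2 did not pass: KRT5 averaged 2143 ± 17.4 CPM in the knockdown and 1504 ± 34.0 CPM in the control, whereas SFN averaged 440.2 ± 7.69 CPM in the knockdown and 846.2 ± 18.1 CPM in the control (SD, n = 3 each), and EPCAM also fell. Of the 10 leukocyte markers, 4 had enough counts to be tested, and the list summed to 10.8 to 12.8 CPM in the knockdown and 12.1 to 16.5 CPM in the control. The pan-leukocyte gene PTPRC had 0, 0 and 1 counts in the knockdown and 2, 0 and 0 in the control. In bulk RNA, fewer cells that express a gene and less RNA per cell cannot be told apart.

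In the knockdown 7 of the 10 chemokine ligand genes rose, 1 fell and 2 failed the test (edgeR quasi-likelihood test, Benjamini-Hochberg adjusted p under 0.05 over all genes). Those that rose were CXCL10, CCL2, CXCL11, CX3CL1, CCL20, CXCL8 and CXCL1. CXCL2 fell, and CXCL3 and CXCL16 did not pass. Calls were common in this comparison: 54.2% of all genes tested passed, with 26.9% higher and 27.4% lower in the knockdown. A rise of 2-fold or more was found for 5 of the 10 genes and for 5.16% of all genes tested. CXCL10, counted among the 7 and the 5, passed the filter on low counts only through its knockdown libraries, where it was high. The median log2 fold change was 0.86 over the 10 genes and 0.0024 over all genes tested. Knockdown and control values were fully apart for 8 of the 10 genes, and for 58.9% of all genes tested.

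**Figure D1:**
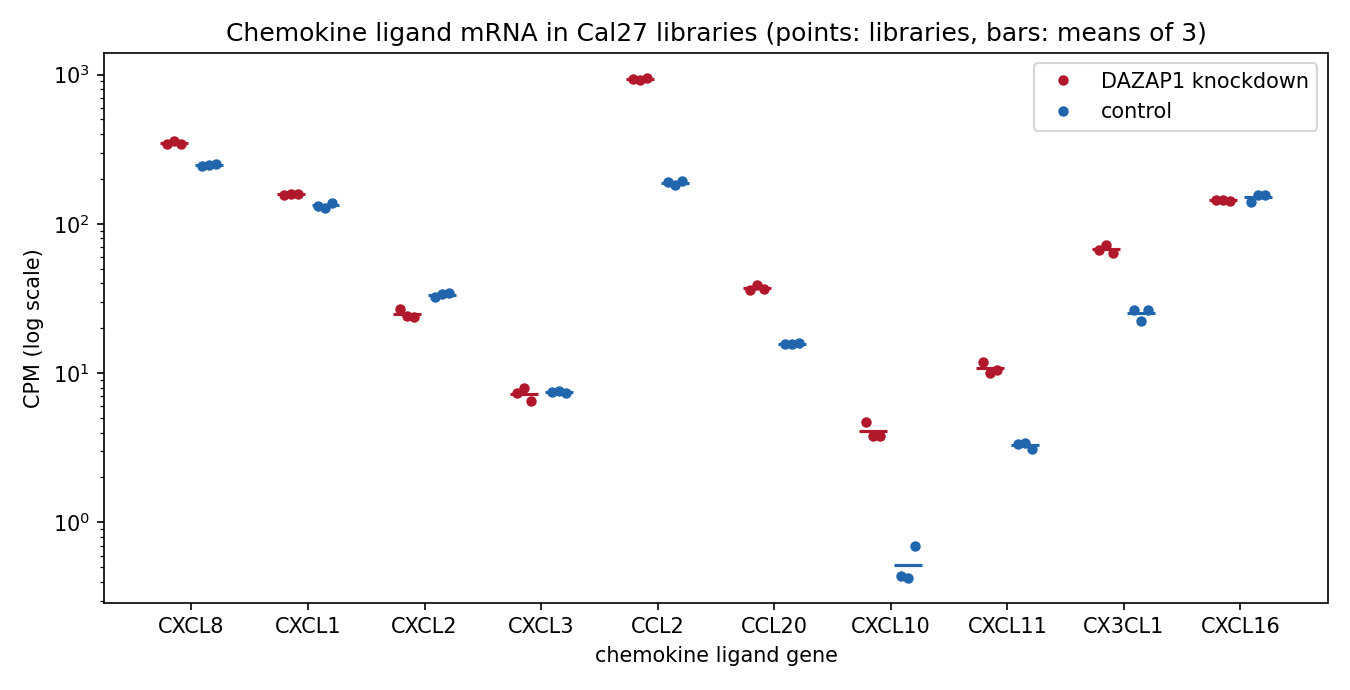
CPM on a log axis for each chemokine ligand gene, with a point for each library and a bar at the mean of the 3 libraries, for the DAZAP1 knockdown (red) and the control (blue). CCL2 lies at 925.2 to 948.5 CPM in the knockdown and 181.0 to 193.8 CPM in the control, and CXCL3 and CXCL16 have overlapping groups.

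CCL2 (ENSG00000108691, chromosome 17, 34255218 to 34257203, plus strand, GRCh38.p13) had the smallest p of the 10. Its levels were 931.6, 925.2 and 948.5 CPM in the knockdown libraries and 190.5, 181.0 and 193.8 CPM in the control libraries. Each knockdown value was several times any control value, and replicates differed little. In the edgeR quasi-likelihood test (adjusted p = 8.62e-71) the log2 fold change was 2.31 ± 0.025 SE, or 4.96-fold. Its genomic neighbours CCL7 and CCL11, ligands of the same family, had 0 or 1 counts in every library and were not tested. Among 10770 other genes with a mean of at least 5 CPM, those whose centred log2 CPM over the 6 libraries lay nearest to that of CCL2 were the water and glycerol channel AQP3 (root mean square distance 0.074), the peptidylarginine deiminase PADI3 (0.082) and PODXL, which encodes podocalyxin (0.083). The log2 fold changes of these 3 genes were 2.45, 2.48 and 2.16.

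CCL20 (ENSG00000115009, chromosome 2, 227805739 to 227817564, plus strand), the ligand of CCR6, stood lower than CCL2 in FPKM and also rose. It had 35.97, 38.77 and 36.38 CPM in the knockdown and 15.62, 15.75 and 15.94 CPM in the control. The groups were far apart relative to their spread. In the edgeR quasi-likelihood test (adjusted p = 2.63e-24) the log2 fold change was 1.23 ± 0.074 SE, or 2.35-fold. CCL2 gained on CCL20 in every knockdown library: the ratio of CCL2 to CCL20 in FPKM (the count per kilobase of gene length and scaled to the library total) was 20.8, 19.2 and 20.9 in the knockdown and 9.79, 9.22 and 9.76 in the control.

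The 4 neutrophil-attracting genes lie in 1 cluster on chromosome 4 and did not move together. CXCL8 (ENSG00000169429, 73740541 to 73743716, plus strand), which encodes interleukin 8, had 344.4, 357.4 and 344.1 CPM in the knockdown and 243.0, 249.1 and 250.4 CPM in the control. All knockdown libraries were higher, by 0.49 ± 0.026 SE on the log2 scale (edgeR, adjusted p = 3.26e-27). CXCL1 (ENSG00000163739, 73869393 to 73871308, plus strand) had 155.3, 157.7 and 159.3 CPM in the knockdown and 132.6, 128.2 and 138.4 CPM in the control, a smaller rise of 0.24 ± 0.034 on the log2 scale (SE; adjusted p = 3.71e-09). CXCL2 (ENSG00000081041, 74097040 to 74099196, minus strand) was the gene that fell. It had 26.93, 24.08 and 23.85 CPM in the knockdown and 32.21, 33.96 and 34.28 CPM in the control, a log2 difference of −0.42 ± 0.069 SE (edgeR, adjusted p = 2.42e-07). CXCL3 (ENSG00000163734, 74036589 to 74038807, minus strand) had 7.32, 7.99 and 6.54 CPM in the knockdown and 7.48, 7.64 and 7.33 CPM in the control. Its groups overlapped, and its log2 fold change of −0.04 had an interval of −0.30 to 0.22 (95%; edgeR, adjusted p = 0.831).

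In the first 3 ratios of neighbours given here, the groups differed by more than the spread between libraries. The ratio of CXCL1 to CXCL2 in FPKM was 5.92, 6.72 and 6.85 in the knockdown and 4.23, 3.87 and 4.15 in the control. For CXCL8 over CXCL2 the ratio was 7.98, 9.27 and 9.01 in the knockdown and 4.71, 4.58 and 4.56 in the control. For CXCL8 over CXCL1 it was 1.35, 1.38 and 1.31 in the knockdown and 1.11, 1.18 and 1.10 in the control. CXCL1 over CXCL3 gave 34.6, 32.2 and 39.7 in the knockdown and 28.9, 27.4 and 30.8 in the control. Here the gap between the groups was smaller than the spread of the knockdown libraries. Of 7 ratios between chemokine ligand genes that were computed, all 7 had groups that did not overlap. These pairs were not part of the plan, and no share over other gene pairs was computed. The ratios restate the changes of the single genes and are descriptive only. Each gave an exact two-sided permutation p of 0.1, also after adjustment, which is the smallest p that 3 libraries against 3 allow.

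CXCL1, CXCL2 and CXCL3 are close copies, so reads can be divided among them. Their coding sequences were 93.5% identical between CXCL1 and CXCL2, 90.7% between CXCL1 and CXCL3 and 94.4% between CXCL2 and CXCL3, against 51.7 to 54.2% for each of them with CXCL8 (GENCODE release 29). Exact windows of 50 bases shared with another gene made up 5.73% of the CXCL1 transcript, 9.24% of CXCL2 and 5.26% of CXCL3, and no window of 100 bases was shared. Neither the read length nor the handling of reads with several matches is stated in the labels, so the values of the trio are uncertain to that extent. CXCL16 shared 3.04% of its windows with unrelated genes, and the other 6 genes shared none.

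The promoters of the chromosome 4 cluster are shown for a short sequence that they share. The stretches run from 100 bases before the annotated start to the base before it, on the strand of the gene (RefSeq, GRCh38.p14). They lie at chr4:73869293-73869392 (CXCL1, plus), chr4:74099196-74099295 (CXCL2, minus), chr4:74038690-74038789 (CXCL3, minus) and chr4:73740469-73740568 (CXCL8, plus). Capitals mark matches to the NF-kB consensus and to GGAATTTCC, its 9-base core in CXCL1.
CXCL1: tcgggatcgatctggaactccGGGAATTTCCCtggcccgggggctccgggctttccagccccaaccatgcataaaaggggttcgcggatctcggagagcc
CXCL2: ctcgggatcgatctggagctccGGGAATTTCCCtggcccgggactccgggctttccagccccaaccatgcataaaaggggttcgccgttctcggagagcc
CXCL3: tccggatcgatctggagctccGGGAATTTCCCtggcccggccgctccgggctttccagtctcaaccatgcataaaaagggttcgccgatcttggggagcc
CXCL8: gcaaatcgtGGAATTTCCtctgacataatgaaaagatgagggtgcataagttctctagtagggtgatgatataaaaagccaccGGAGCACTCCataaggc

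In the trio the core began 77 or 78 bases before the start, and in CXCL8 it began 91 bases before it. Over the 250 bases before the start, CXCL1 and CXCL3 were 81.4% identical, CXCL2 and CXCL3 73.3% and CXCL1 and CXCL2 68.0%, against 40.5 to 45.0% for each with CXCL8. A promoter was found for 7 of the 10 genes, not for CCL2, CXCL16 or CX3CL1. All 7 held the NF-kB consensus on either strand within 250 bases before and 50 after the start, as did 14% of 35116 promoters. GGAATTTCC, chosen after the CXCL1 match was seen, lay within a consensus match except in CXCL8, whose only consensus match was GGAGCACTCC nearer to the start. It was in 6 of the 7 on either strand and in 0.461% of all promoters. CXCL2, which fell, and CXCL3, which did not pass, held GGAATTTCC, as did CXCL1 and CXCL8, which rose. Whether this sequence bears on the changes was not tested. A match describes letters and does not show binding.

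The CXCR3 ligands had the lowest control levels and large rises. CXCL10 (ENSG00000169245, chromosome 4, 76021118 to 76023497, minus strand) had 85, 65 and 63 counts in the knockdown and 8, 8 and 13 counts in the control. This is 4.71, 3.79 and 3.81 CPM in the knockdown and 0.437, 0.427 and 0.695 CPM in the control. In the edgeR quasi-likelihood test (adjusted p = 2.05e-14) the log2 fold change was 2.97 ± 0.29 SE, or 7.81-fold with an interval of 2.40 to 3.54 on the log2 scale. It is the largest fold of the 10 genes and the least precise. On the log2(FPKM + 1) scale, which compresses low values, it was 1.66. CXCL10 passed the filter on low counts only through its knockdown libraries, where it was high. Without that filter its log2 fold change was 2.97. CXCL11 (ENSG00000169248, chromosome 4, 76033682 to 76041415, minus strand) had 11.80, 9.97 and 10.47 CPM in the knockdown and 3.33, 3.42 and 3.10 CPM in the control. It rose by 1.71 ± 0.14 SE on the log2 scale (edgeR, adjusted p = 3.61e-17). The third ligand of this receptor, CXCL9, had 0, 0 and 0 counts in the knockdown and 0, 0 and 1 in the control, where 0 counts allow up to 0.166 to 0.182 CPM in a knockdown library. CXCL10 rose more than CXCL11: their FPKM ratio was 0.605, 0.576 and 0.552 in the knockdown and 0.199, 0.189 and 0.340 in the control. The gene ART3 spans both on the other strand and had 0 counts in the knockdown libraries and 0, 1 and 3 in the control libraries.

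Both promoters are shown for their arrangement of sites. CXCL10 is given up to the base before its start, over a longer stretch that reaches its ISRE match (chr4:76023498-76023722, minus strand) and CXCL11 from 100 bases before it (chr4:76036071-76036170, minus strand), from RefSeq on GRCh38.p14. Capitals mark the NF-kB consensus and the core of the interferon-stimulated response element (ISRE), which is GAAA, any 2 bases and GAAA again, searched on both strands.
CXCL10: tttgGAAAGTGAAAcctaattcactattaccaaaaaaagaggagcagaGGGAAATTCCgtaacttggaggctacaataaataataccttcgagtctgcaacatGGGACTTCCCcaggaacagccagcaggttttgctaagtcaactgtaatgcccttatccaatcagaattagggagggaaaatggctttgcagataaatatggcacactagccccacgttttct
CXCL11: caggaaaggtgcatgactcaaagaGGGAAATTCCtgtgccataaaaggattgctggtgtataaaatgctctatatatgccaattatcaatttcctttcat

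CXCL10 was the 1 gene of the 7 with the ISRE core in its window, which 3.57% of all promoters held. It had 2 NF-kB matches, and CXCL11 had 1, preceded by the AP-1 sequence TGANTCA, which CXCL8 also held and which 7.71% of promoters contained. The TATA box TATAAA was in CCL20, CXCL8 and CXCL11, and in 11.5% of promoters. CCL20 had 1 NF-kB match, GGAAAACCCC, 79 to 70 bases before its start.

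The gene nearest in pattern to CXCL10 was GBP4, an interferon-induced GTPase gene (root mean square distance 0.172; log2 fold change 3.01 ± 0.15 SE). The desaturase gene SCD (0.228) and PADI3 (0.238) followed. For CXCL8 the nearest were SPTLC2, a subunit of serine palmitoyltransferase (0.014), the Mediator subunit gene MED30 (0.016) and the keratin gene KRT80 (0.020). All are distances on the log2 scale over 6 libraries in 2 groups, so they mostly record a like difference between the groups.

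The 2 membrane-bound chemokines differed from each other. CX3CL1 (ENSG00000006210, chromosome 16, 57372477 to 57385044, plus strand), also called fractalkine, had 67.06, 72.53 and 64.17 CPM in the knockdown and 26.48, 22.26 and 26.58 CPM in the control. With edgeR (adjusted p = 3.33e-32) its log2 fold change was 1.44 ± 0.060 SE, or 2.71-fold. CXCL16 (ENSG00000161921, chromosome 17, 4733533 to 4739928, minus strand), the ligand of CXCR6, had 144.3, 143.9 and 142.3 CPM in the knockdown and 141.0, 156.1 and 156.4 CPM in the control. The control libraries lay on either side of the knockdown libraries, with control replicate 1 the lowest of the 6. The log2 difference was −0.08 ± 0.035 SE (edgeR, adjusted p = 0.0603), and without control replicate 1 it was −0.13 and passed (adjusted p = 0.00270). The interval of −0.14 to −0.0073 in the full comparison holds no change of the size seen in CX3CL1. The ratio of CX3CL1 to CXCL16 in FPKM was 0.218, 0.236 and 0.211 in the knockdown and 0.088, 0.0668 and 0.0797 in the control. The ends of CXCL16 overlap MED11 and ZMYND15 on the other strand. ZMYND15 fell (33, 16 and 14 counts in the knockdown; 43, 37 and 46 in the control; log2 fold change −0.89) and MED11 did not pass, and both had far fewer counts than CXCL16.

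**Figure D2:**
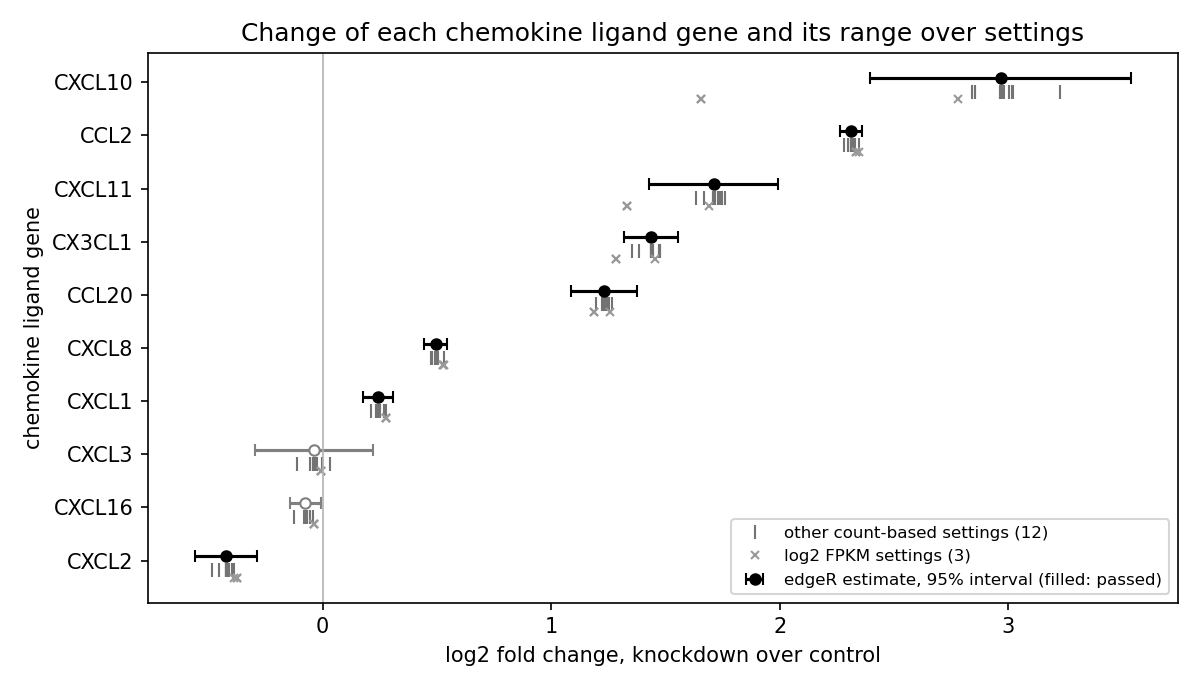
Log2 fold change of each chemokine ligand gene, knockdown over control, with a 95% interval from its SE, and below it the values under 12 other count-based settings (grey bars) and 3 log2 FPKM settings (grey crosses). CXCL10 has the widest range, from 1.66 to 3.23, and CXCL3 and CXCL16 stay near 0.

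The order of levels was compared per length, in FPKM. In the knockdown CCL2 stood first at 476.6 ± 5.71 FPKM, followed by CXCL8 at 157.6 ± 3.52 and CXCL1 at 117.0 ± 1.42 FPKM (SD, n = 3). CXCL16 followed at 52.0 ± 0.438, CCL20 at 23.5 ± 0.972, CXCL2 at 18.1 ± 1.25, CX3CL1 at 11.5 ± 0.730, CXCL11 at 6.11 ± 0.540, CXCL10 at 3.54 ± 0.453 and CXCL3 at 3.32 ± 0.334 FPKM. In the control CXCL8 stood first at 109.2 ± 1.78, followed by CXCL1 at 96.5 ± 3.71, CCL2 at 93.7 ± 3.29, CXCL16 at 53.4 ± 3.13 and CXCL2 at 23.7 ± 0.790 FPKM. The others were CCL20 at 9.77 ± 0.101, CX3CL1 at 4.16 ± 0.407, CXCL3 at 3.33 ± 0.0694, CXCL11 at 1.82 ± 0.0906 and CXCL10 at 0.437 ± 0.128 FPKM. Neighbours in this order that overlapped were CXCL10 and CXCL3 in the knockdown, and CXCL1 and CCL2 in the control.

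The lengths behind the deposited FPKM bear on this order. The length implied by the counts was 1986 bases for CCL2, which is the whole span of the gene, whereas its main coding transcript has 741 bases. Per kilobase of that transcript, a measure chosen after these lengths were seen, CCL2 stood first in both groups, at 1262 ± 16.1 CPM per kb in the knockdown and 254.3 ± 8.94 CPM per kb in the control (SD, n = 3 each). CXCL8 was then second at 204.5 ± 4.45 in the knockdown and 145.2 ± 2.34 CPM per kb in the control, with CXCL1 next in both groups. The order of the lower genes in the knockdown also depended on the length used. Per kilobase of transcript CX3CL1 (20.5 ± 1.28 CPM per kb) and CXCL2 (20.5 ± 1.41) were 6th and 7th with overlapping values, CXCL3 (6.77 ± 0.675) and CXCL11 (6.69 ± 0.589) were 8th and 9th, also overlapping, and CXCL10 (3.49 ± 0.446) was 10th.

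The summed FPKM of the 10 genes was 866.4, 870.1 and 871.4 in the knockdown and 390.1, 391.2 and 406.6 in the control. CCL2 made up 54.8, 54.2 and 55.4% of it in the knockdown and 24.3, 23.0 and 23.7% in the control. With transcript lengths its share was 70.4 to 71.5% in the knockdown and 38.1 to 39.7% in the control. The share of CXCL8 was 17.8 to 18.6% in the knockdown and 27.2 to 28.1% in the control, although its own level rose. With transcript lengths the share of CXCL8 was 11.3 to 11.8% in the knockdown and 21.9 to 22.8% in the control. Without CCL2 the sum was 388.5 to 398.2 FPKM in the knockdown and 295.4 to 310.2 FPKM in the control.

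**Figure D3:**
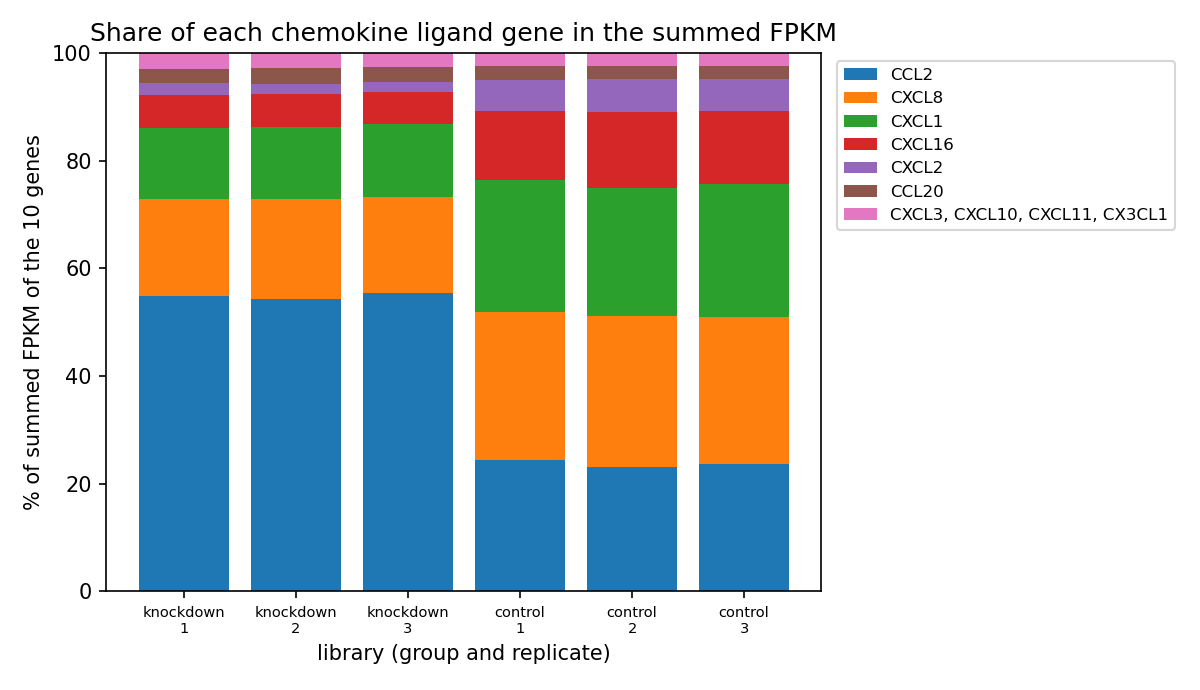
Share of each chemokine ligand gene, in percent, of the summed FPKM of the 10 genes in each library, with knockdown libraries on the left, control libraries on the right and CXCL3, CXCL10, CXCL11 and CX3CL1 drawn together. CCL2 makes up 54.2 to 55.4% in the knockdown and 23.0 to 24.3% in the control.

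The 3′ UTRs were searched for AU-rich sequences after these values were seen. ATTTA occurred in all 10 genes, as in 68.1% of 12354 tested genes with an annotated 3′ UTR, so its presence alone is common. Its density was highest in the 4 neutrophil-attracting genes: 13.9 copies per kilobase in CXCL2, 10.4 in CXCL3, 7.19 in CXCL8 and 7.08 in CXCL1, with CCL20 at 6.65 and the rest at 0.900 to 2.66. The median over all genes was 1.56, and 0.575% of genes were at least as dense as CXCL2 and 3.72% as dense as CXCL1. The longer form TATTTAT had 8 copies in CXCL2, 4 in CXCL8, 4 in CXCL1 and 3 in CXCL3. CCL20 and CX3CL1 had 1 copy each, and CCL2, CXCL10, CXCL11 and CXCL16 had none. At least 1 copy was present in 31.5% of the tested genes with an annotated 3′ UTR. CXCL2, the densest, fell, and CCL20, with a density near that of CXCL1, rose by 1.23 on the log2 scale. CXCL8 and CXCL1 also rose, and CXCL3 did not pass. Whether these sequences bear on the changes was not tested.

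Few other chemokine ligands were measurable. Of 38 further ligands searched, 20 had values and 4 had enough counts to be tested, and the other 18 had no row to read, so their levels were not analysed here. CCL22, a ligand of CCR4 that lies next to CX3CL1, had 19, 39 and 33 counts in the knockdown and 9, 33 and 11 in the control. It passed narrowly (log2 fold change 0.89 ± 0.37 SE; adjusted p = 0.0411, edgeR quasi-likelihood test) with overlapping groups, and did not pass without control replicate 1 (0.58, adjusted p = 0.206), without control replicate 3 (0.64, adjusted p = 0.184), knockdown replicate 2 (0.67, adjusted p = 0.190) or knockdown replicate 3 (0.80, adjusted p = 0.143). The mucosal chemokine CCL28 (log2 −0.15), XCL1 (0.11) and XCL2 (0.52) did not pass. CCL5, an interferon-responsive ligand, had 4, 4 and 6 counts in the knockdown and 0, 0 and 2 in the control and was not tested.

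Among 23 chemokine receptors, 7 were tested, of which 4 rose, 1 fell and 2 did not pass. ACKR3, a scavenging receptor of CXCL11 and CXCL12, averaged 18.6 ± 0.784 CPM in the knockdown and 7.78 ± 0.560 CPM in the control (SD, n = 3 each; log2 fold change 1.26 ± 0.10 SE). CXCR2, the receptor of the neutrophil-attracting ligands, had 33, 33 and 36 counts in the knockdown and 18, 18 and 16 in the control (log2 1.08 ± 0.32 SE). XCR1 had 20, 19 and 22 counts in the knockdown and 0, 4 and 5 in the control. It passed the filter on low counts only through the knockdown libraries, where it was high. CCRL2 rose by 0.40 on the log2 scale. CXCR6, the receptor of CXCL16, had 6, 17 and 6 counts in the knockdown and 24, 20 and 19 in the control (log2 −1.002 ± 0.42 SE; edgeR, adjusted p = 0.0361), with knockdown replicate 2 apart from the other 2. Without that library the log2 value was −1.68, and the call was lost in 4 of the 6 fits that left out a library. CXCR6 passed the filter on low counts only through the control libraries, where it was high. CCR3 (0.07) and ACKR4 (−0.47) did not pass. CCR2, CCR6, CXCR3 and CX3CR1, the receptors of CCL2, CCL20, the CXCR3 ligands and CX3CL1, were searched by symbol but had no row to read, so their levels were not analysed here.

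Among 10 sheddases and proteases that act on chemokines, 9 were tested, of which 6 rose, 2 fell and 1 did not pass. Both sheddases of CX3CL1 and CXCL16 rose. ADAM10 averaged 339.8 ± 3.42 CPM in the knockdown and 195.3 ± 1.86 CPM in the control (log2 0.80 ± 0.027 SE), and ADAM17 averaged 119.1 ± 3.24 CPM in the knockdown and 74.5 ± 1.86 CPM in the control (log2 0.68 ± 0.040 SE; SD, n = 3 each). The cathepsin gene CTSB (0.81), the membrane-type metalloproteinase gene MMP14 (0.19), MMP1 (0.76) and MMP3 (1.32) rose too, and cathepsin S (CTSS) fell by 0.55 on the log2 scale. MMP12, at low counts (3, 3 and 11 in the knockdown, and 21, 28 and 22 in the control), fell by 1.93.

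Genes upstream of chemokine expression moved in both directions. Of 20 inducing cytokines, 11 were tested, of which 5 rose and 4 fell. TNF averaged 23.5 ± 1.58 CPM in the knockdown and 14.3 ± 0.875 CPM in the control (SD, n = 3 each; log2 0.71 ± 0.087 SE), and TNFSF10 (1.54) and IL17C (1.60) rose. IL1B averaged 395.9 ± 6.98 CPM in the knockdown and 503.4 ± 13.6 CPM in the control (log2 −0.35), and CSF2 (−0.64) and IL6 (−1.02) also fell. Interferon beta (IFNB1) had 4, 2 and 2 counts in the knockdown and 0 in each control library and was not tested, and IFNL1 had 1, 0 and 0 in the knockdown and 0 in each control library.

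Of 16 NF-kB subunits, kinases, inhibitors and related factors, all tested, 5 rose, 6 fell and 5 did not pass, with a median log2 fold change of −0.06. The subunit gene NFKB1 (0.38), the inhibitor gene NFKBIA (0.61) and NFKBIZ (0.38) rose. The subunit genes RELA (−0.29) and RELB (−0.98) and the deubiquitinase gene TNFAIP3 (−0.28) fell. Of 16 interferon signalling factors, 8 rose, 1 fell and 7 did not pass, with a median of 0.23. IRF1 (0.37), IRF2 (0.48), IRF3 (0.23) and the receptor chain IFNGR1 (0.43) rose, and the feedback inhibitor SOCS1 fell by 0.73 on the log2 scale. Of 11 listed factors of mRNA decay and stability, none rose, 5 fell and 6 did not pass, with a median of −0.04. Those that fell were the decay factors ZFP36L1 (−0.38), ZFP36L2 (−0.80) and CELF1 (−0.38), the stabilising factor ELAVL1 (−0.16) and TIAL1 (−0.11).

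**Figure D4:**
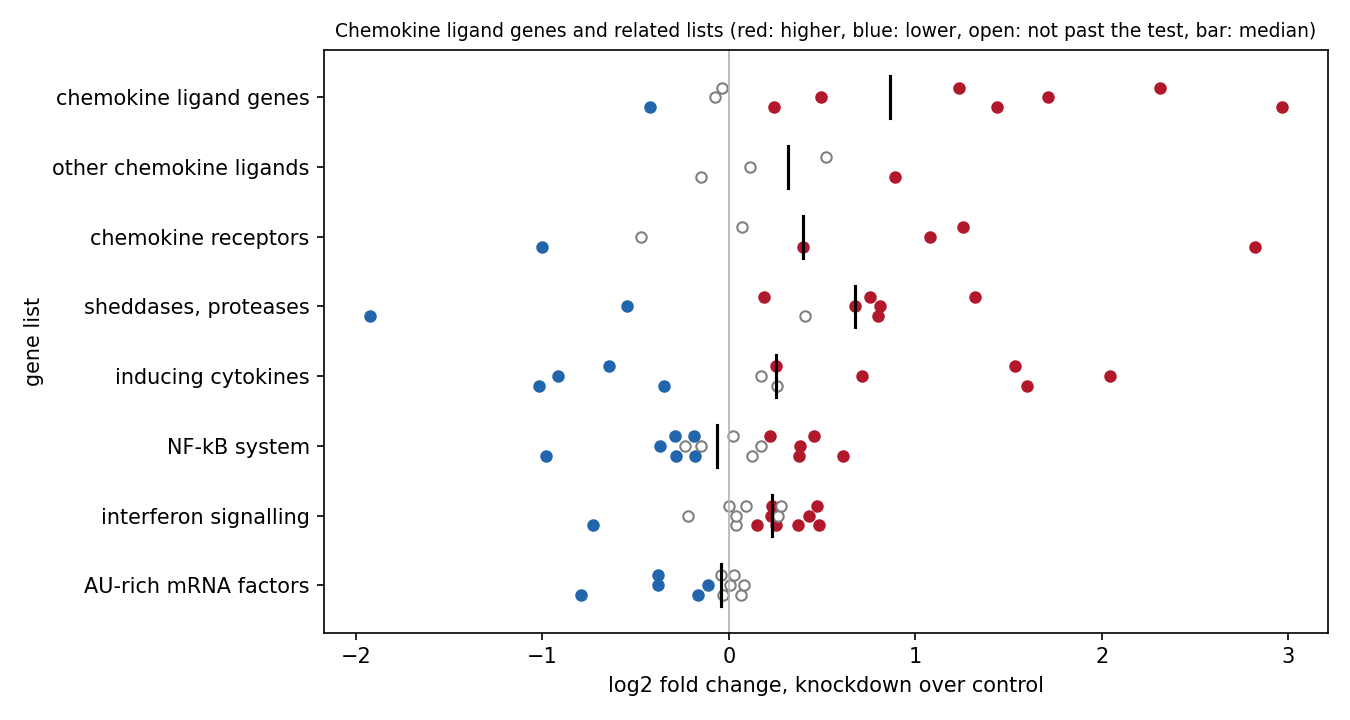
Log2 fold change, knockdown over control, of the 10 chemokine ligand genes and of the tested genes of 7 related lists, with red points higher, blue points lower and open points not past the test, and a bar at each median. The chemokine ligand genes have a median of 0.86, against −0.06 for the NF-kB list and 0.23 for the interferon signalling list.

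Some genes used as markers of other chemokine-producing cells also moved in this cell line. Of the 9 fibroblast markers, 6 had values and 4 were tested. The list summed to 18.7 to 19.6 CPM in the knockdown and 10.3 to 13.7 CPM in the control. COL1A1, COL1A2 and PDGFRB were higher in the knockdown. LUM, also tested, had 16, 14 and 15 counts in the knockdown and 14, 30 and 12 in the control, and did not pass (log2 −0.20). THY1 had 2, 0 and 1 counts in the knockdown and 0, 2 and 4 in the control. FAP had 2, 0 and 0 counts in the knockdown and 3, 0 and 0 in the control. The 6 endothelial markers, of which 5 had values and 2 were tested, summed to 46.6 to 52.0 CPM in the knockdown and 14.2 to 16.7 CPM in the control. CDH5 made up nearly all of that and rose by 1.75 on the log2 scale, whereas PECAM1 had 4, 6 and 10 counts in the knockdown and 0, 4 and 0 in the control. VWF, the other tested endothelial marker, had 16, 4 and 16 counts in the knockdown and 26, 20 and 19 in the control, and did not pass (log2 −0.74, edgeR adjusted p = 0.112). Among leukocyte markers, CXCR2 rose as given above, and CD14 rose (43, 44 and 31 counts in the knockdown, and 22, 11 and 17 in the control). CSF1R fell by 0.78 on the log2 scale, and ITGAM did not pass (log2 −0.26). All libraries came from the Cal27 line, and counts of these genes do not show that such cells were present. Whether these genes bear on the chemokine values was not tested.

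Genes beside the chemokine ligand genes were read within 200 kb. Around the CXCL8 to CXCL2 cluster the 2 tested neighbours, RASSF6 (log2 −0.82) and MTHFD2L (−0.56), both fell. Around CXCL10 and CXCL11, SCARB2 rose by 0.28 on the log2 scale, and SDAD1, NUP54 and NAAA did not pass. The single tested neighbours of CCL2 (LINC01989) and CCL20 (SLC19A3) did not pass. Of 11 neighbours of CX3CL1, 4 rose, 3 fell and 4 did not pass, the largest rise being PLLP (1.80), and of 14 neighbours of CXCL16, 2 rose, 7 fell and 5 did not pass.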

How the data were processed

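Raw counts and FPKM of 30947 genes in 6 libraries were deposited by the authors. The submitters' processing notes name GRCh38.p13 and Bowtie, while no source used here gives the counter, annotation, strandedness or read length. Dividing deposited counts by deposited FPKM gave the same gene length in every library, within 8.8e-05 on the log2 scale over 10061 genes with enough counts. Columns were matched to samples by prefix (N2 as control, SH2 as knockdown) and replicate number.

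Tests on the counts used edgeR 4.0.16 under R 4.3.3 (filterByExpr with a minimum count of 10, TMM, robust quasi-likelihood test, group as the only term), with Benjamini-Hochberg adjustment over all 15374 genes tested and a threshold of 0.05. SE is the log2 fold change divided by the root of the F statistic. The fits were tested on simulated data. Within groups, libraries differed by 1.86 to 2.78 times Poisson noise, so none was counted as a duplicate. Intervals of fold changes come from the SE, and floors (3 counts) cover counting error only.

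Alternatives were DESeq2 1.42.0, limma 3.58.1 on log2 FPKM (pseudocounts 1 and 0.1), other scalings and filters, a replicate block and each library left out. Promoters came from RefSeq and transcripts from GENCODE release 29; proteins were not used here. Named are DAZAP1, the members, tested ligands and receptors, up to 6 genes of each other list by adjusted p, and the 3 genes most like CCL2, CXCL8 and CXCL10. Others were named after their values were seen. A gene that the rule names is not reported here. The members and lists were chosen with earlier results of these data known.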

Additional observations from a re-analysis of the deposited data

How the results depend on the processing

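Under 15 alternatives, 8 of the 10 chemokine ligand genes passed in each, with 7 higher and 1 lower, except that without control replicate 1 CXCL16 also passed and 2 genes were lower. Leaving out each library in turn gave 8 to 9 genes called, 7 higher and 1 to 2 lower. Over all genes the calls ranged from 7310 with DESeq2 to 8357 with library size scaling, leaving aside the setting on the fewest genes. That setting, limma on log2(FPKM + 1) with a mean FPKM of at least 1, covered 11533 genes and called 6653. The other settings did not all cover the same genes. With the stricter filter on low counts, 13669 genes were shared with the main fit and 8182 were called. The split was 4131 higher and 4208 lower with TMM, 4594 and 3763 with library size scaling, and 4203 and 3482 with limma on log2(FPKM + 1). CXCL3, which passed nowhere, ranged from −0.11 to 0.031 with each library left out, with the positive value without knockdown replicate 3. CCR3 and XCL1, also not called, ranged from −0.15 to 0.31 and from −0.13 to 0.34 on the log2 scale. The cause was not tested.

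The replicate block left 8307 genes called, with 8 of the chemokine ligand genes called (7 higher, 1 lower). Deviations of same-numbered libraries were uncorrelated (0.00282, −0.000783 and −0.00632), so no effect shared by a number was seen. This cannot show whether same-numbered libraries were cultured or prepared together, which the labels do not state.

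CXCR6 lost its call with DESeq2 (adjusted p = 0.0907), without the filter on low counts (0.0669), with limma on log2 FPKM at both pseudocounts (0.0573 and 0.0542) and in 4 of the 6 fits that left out a library. CCRL2 did not pass without control replicate 2 (adjusted p = 0.0576) or knockdown replicate 3 (0.0720), and CCL22 did not pass with DESeq2 (0.0922) or limma on FPKM. TIAL1 did not pass with library size scaling (0.0504) or limma on FPKM (0.0759 to 0.0866), where ZC3H12A did (0.0176 with library size scaling).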
